A study of Gallus gallus with 4 samples.

Results

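The saline-treated cranial headfolds formed the unexposed arm of a study of alcohol exposure in chick embryos, and their transcriptome is described here without any contrast of treatments. It was chosen by its labels as the 2 saline sequencing lanes (lanes 6 and 7 of a single run) among the 4 lanes of the study, the other 2 lanes being those of ethanol-exposed headfolds. Embryos of the strain Special black were incubated for 27 hr and received isotonic saline in place of 0.43 mmol ethanol. They were collected 6 hr after the start of the 90 min exposure. Their stage is given as 4 to 7 somites (Hamburger-Hamilton stages 8 to 9), and the paper's wording ties the somite number to the embryos that were exposed. Headfolds had been pooled by 23, the labels give no sex, and all tissues of the headfold entered the library together. The RNA had been selected on poly-T beads, primed with random hexamers and read as pairs of 75 bp.

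Around this stage the neural plate of the head folds up into a tube. The neural crest forms at the edges of the plate before it moves out to build much of the face. The same headfolds also hold surface ectoderm, head mesenchyme, notochord and foregut endoderm. In a bulk library of such a mixture, fewer cells of a type and less RNA per cell cannot be told apart. Only 56 genes could be given a symbol, and the forebrain, midbrain, hindbrain, neural crest, mesoderm, endoderm and blood markers that would define these tissues were not among them. The label of the tissue was therefore not checked against its markers.

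Counts had been made per exon part, the piece of a gene from one annotated exon boundary to the next. The table, in the build Gallus gallus 5.0, listed 24513 gene identifiers with 220717 exon parts. Exon parts of a gene were summed for its abundance. Levels are given in CPM, a gene's counts per 1000000 counts outside the mitochondrial genome (MT). Levels of different genes are compared in TPM, here counts per kilobase of summed exon parts, scaled to the same total as CPM. TPM also depends on exon structure, since short exon parts had fewer counts per kilobase. Fragments over more than 1 exon part had no count, and reads had been aligned with Bowtie2. What counting and alignment each contribute was not tested. In genes with at least 1000 counts, parts shorter than the read had 273 counts per kilobase. Parts over 500 bases had 1899. Comparisons of TPM between genes with short and with long parts carry this bias. Counts were also denser towards the 3' end of genes, as given below, whereas TPM divides by the whole model. Comparisons of TPM between short and long models were not corrected for this. Ranks, ranges and shares in CPM or counts describe how the counts were distributed and are not corrected for length. Lane 6 held 20951322 counts and lane 7 held 20861872 counts, of which MT took 44.2% in each lane. This left 11680918 and 11646499 counts for 24481 nuclear genes, and the floor of 3 counts corresponded to 0.129 CPM in the summed lanes.

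Before the lanes were summed, they were compared over the 16831 nuclear genes with at least 10 counts. The ratio of the chi-square to its degrees of freedom was 1.04 (chi-square 17473, 16830 degrees of freedom, p = 0.00026 from the chi-square test over genes). Pure sampling noise would give 1, so the lanes differed by slightly more than that. In genes with at least 100 counts the ratio was 1.05. Both ratios stayed under the limit of 1.1 that was used to sum lanes. The lanes therefore counted as 1 library, and no SD is given. Intervals and floors below cover counting error only, and leave out this small excess between lanes. They do not cover the choice of gene length. With only exon parts of at least 75 bases counted, all per-length ratios below except TMSB4X to ACTG1 fell outside their intervals. Where not given below, the values were 6.37 for PKM to SLC2A1, 2.08 for YWHAE to YWHAQ and 1.11 for YWHAQ to YWHAB. They were 1.20 for HSPA5 to HSP90AB1, 1.31 for SRSF1 to SRSF3, 1.24 for ITGB1 to FN1 and 9.58 for PRDX1 to OGT. In a two-sided exact binomial test per gene with Benjamini-Hochberg adjustment, 1 gene (0.00594% of those tested) differed between lane 7 and lane 6 at a false discovery rate of 0.1. This gene, ENSGALG00000041471 on an unplaced scaffold, had 6783 CPM in lane 7 and 6625 CPM in lane 6 (adjusted p = 0.0553, exact binomial test), a difference of a few percent. Of the exon parts with at least 10 counts, 0 of 69696 (0%) differed by the same exact binomial test, and 2471 had an unadjusted p under 0.05. None of the 56 genes with a symbol passed the adjusted test, and 9 of the 56 had an unadjusted p under 0.05 in the exact test, against 744 of all 16831 genes (4.42%).

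The abundance of transcripts was spread over many genes, with a few strongly represented ones. Of 24481 nuclear genes, 16831 (68.8%) reached 10 counts in the summed lanes, and 3722 (15.2%) had 0 counts, which allows up to 0.129 CPM for each. Genes with at least 1000 CPM numbered 77, which is 0.315% of the genes, and they took 17.2% of the counts. The 2254 genes between 100 and 1000 CPM took 52.4% of the counts, and the 7184 genes between 10 and 100 CPM took 28.0%. The 5739 genes with some counts but under 1 CPM took 0.181% in all. The genes without counts had shorter annotated models (median 542 bases and 2 exon parts) than the genes between 100 and 1000 CPM (median 2547 bases and 12 exon parts).

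The highest gene alone held 1.84% of the counts (95% exact binomial interval 1.84% to 1.85%), the top 10 held 6.68%, the top 100 held 19.3% and the top 1000 held 51.4%. Together 933 genes held 50% of the counts and 5731 genes held 90%. On the TPM scale the highest genes held slightly more, with 7.93% in the top 10 genes and 782 genes for 50% of the sum. For 90% of the sum the order was the opposite, with 5835 genes in TPM. Of the 100 genes with the highest CPM, 44 were also among the 100 highest in TPM, so the ranking depended on gene length. Of 220675 nuclear exon parts, 1550 held 50% of the counts, and the top 10, 100 and 1000 exon parts held 5.25%, 15.1% and 42.2%.

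**Figure D1:**
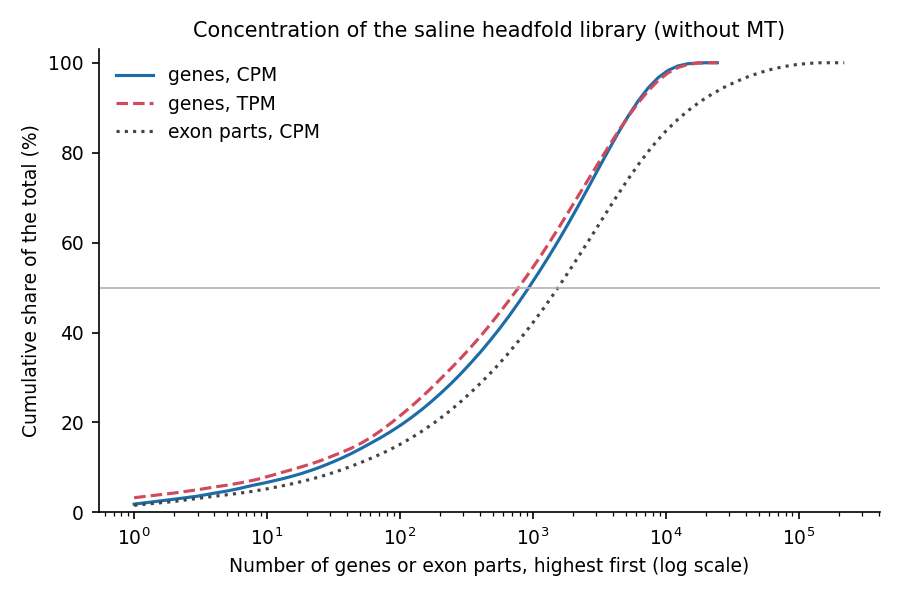
Cumulative share of the total (vertical axis, %) against the number of genes or exon parts taken from the highest downwards (horizontal axis, log scale) in the 2 summed saline lanes without MT. The solid line shows genes by counts, the dashed line genes by TPM and the dotted line exon parts by counts. The grey line marks 50%, which the solid line crosses at 933 genes and the dotted line at 1550 exon parts.

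Among the 20 genes with the highest CPM, 8 had a symbol, and the 20 together took 9.05% of the counts. The highest was an unnamed gene on an unplaced scaffold (ENSGALG00000044239, 2 exon parts, 996 bases) with 18547 CPM in lane 6 and 18331 CPM in lane 7. The other unnamed gene among the top 3 was ENSGALG00000041471, which has 1 exon part of 1962 bases and 6704 CPM in the summed lanes. These genes held 25.9% of all counts on the unplaced scaffolds. The named genes in the top 20 were ACTB, EEF1A1, ACTG1, GAPDH, ENO1, PKM, CLDN1 and SRSF1, which span the actin cytoskeleton, peptide elongation, glycolysis, tight junctions and splicing.

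The 56 genes with a symbol took 7.39% of the counts, and 41 of them ranked among the top 1000. Their symbols come from tables of exons that stood out in the alcohol comparison, so they are no random sample of the transcriptome. Their lowest level was 3.43 TPM, against a median of 14.7 TPM over the 16831 genes with at least 10 counts. Of the 56, 20 carry a combined identifier, under which overlapping genes share their counts, and their values cannot be assigned to one of the overlapping genes. The paper lists most of these genes, such as ACTB, DDX5 and CDK6, as hosts of a miRNA. Whether the overlapping gene is that miRNA was not tested.

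Genes of the cytoskeleton held 2.01% of the counts. ACTB encodes β-actin, the main monomer of cortical filaments, and had 11006 CPM in lane 6 and 11036 CPM in lane 7 (10492 TPM). ACTG1, which encodes another cytoplasmic actin, had 4612 and 4675 CPM (2958 TPM). Per length, ACTB thus stood 3.55 times as high as ACTG1 (95% interval 3.52 to 3.57), and both have combined identifiers. The ratio was 3.91 from exon parts of at least 75 bases alone. TMSB4X encodes the actin monomer-binding thymosin β and had 1627 and 1625 CPM. Its short model of 794 bases put it at 3616 TPM, above ACTG1 by 1.22 times (95% interval 1.21 to 1.24). The tubulin gene TUBB4B reached 1179 TPM, against 289 TPM for TUBA4A and 179 TPM for MYH10, the heavy chain of a nonmuscle myosin that drives cell constriction. TUBA4A had 97.0% of its counts in a part with 21.9% of its bases, and MYH10 had 84.9% in 17.5%. In TUBB4B, 72.9% lay in 36.6%. The size of these differences in TPM thus rests on the model length.

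The 4 genes of glycolysis and glucose uptake held 1.01% of the counts. GAPDH, which oxidises glyceraldehyde phosphate, had 3827 and 3824 CPM in lanes 6 and 7 (3663 TPM). ENO1, the enolase of the pathway, had 2872 and 2830 CPM (2705 TPM), and the pyruvate kinase gene PKM had 2811 and 2887 CPM (1943 TPM). ENO1 and PKM had nearly equal CPM, whereas per length ENO1 was 1.39 times as high (95% interval 1.38 to 1.41). With only exon parts of at least 75 bases counted, this ratio was 2.08, so its size rests on how the length is taken. SLC2A1, the glucose transporter that feeds the pathway, had 317 TPM, and PKM stood 6.13 times above it (95% interval 6.02 to 6.25).

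Genes of translation included EEF1A1, which brings aminoacyl-tRNA to the ribosome, with 4752 and 4713 CPM in lanes 6 and 7. The ribosomal protein genes RPS20 and RPL39 had only 1173 and 1028 CPM in the summed lanes, but models of 493 and 480 bases put them at 4202 and 3784 TPM. RPS20 thus lay 1.07 times above EEF1A1 per length (95% interval 1.06 to 1.08), although it had fewer counts. From exon parts of at least 75 bases alone, this ratio was 1.19. EIF4G2, a scaffold of noncanonical initiation, had 2115 and 2048 CPM but 871 TPM, and RPS20 stood 4.82 times above it. That ratio also rested on how the length is taken, and was 7.06 from parts of at least 75 bases.

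The 14-3-3 adaptors, which bind phosphorylated partners, lay between 896 and 1862 TPM. YWHAE had 1920 and 1892 CPM in lanes 6 and 7 (1862 TPM), and YWHAQ had 1823 and 1824 CPM (960 TPM). YWHAB had 1364 and 1353 CPM (896 TPM). Per length YWHAE was 1.94 times YWHAQ (95% interval 1.91 to 1.97), and YWHAQ was 1.07 times YWHAB (95% interval 1.06 to 1.09).

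Among chaperones, HSPA5, the Hsp70 of the endoplasmic reticulum (ER), had 1527 and 1539 CPM in lanes 6 and 7 and the highest TPM of the group (1163). HSP90AB1, a cytosolic chaperone of kinases and receptors, reached 928 TPM, and HSPA5 stood 1.253 times above it (95% interval 1.23 to 1.27). The mitochondrial chaperonin gene HSPD1 had 724 TPM. The disulfide isomerase genes PDIA6 and TXNDC5 had 621 and 517 TPM, and ERP29, which helps to fold secreted proteins, had 560 TPM. The whole group of 6 lay within 607 and 1533 CPM.

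The 5 genes of RNA-binding proteins held 0.786% of the counts. SRSF1, a serine- and arginine-rich splicing factor, had 2358 and 2334 CPM in lanes 6 and 7 (1476 TPM), 1.34 times the 1099 TPM of its relative SRSF3 (95% interval 1.32 to 1.36). HNRNPA3, which packages nascent transcripts, had 1075 TPM. The RNA helicase genes DDX5 and DDX3X had 795 and 470 TPM.

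Among adhesion and matrix genes, the order changed with length. CLDN1, a claudin of tight junctions, had 2613 and 2586 CPM in lanes 6 and 7 and led on both scales (1791 TPM). FN1 encodes fibronectin, a matrix protein along which mesenchyme and crest cells move, and followed with 2018 and 2026 CPM. Its model of 8555 bases put it at 417 TPM, below the integrin chain gene ITGB1 (500.7 TPM), which stood 1.20 times above it (95% interval 1.18 to 1.22). FN1 had 71.4% of its counts in a 3'-most part with 9.27% of its bases, so this order rests on the model length. PTPRF, a receptor tyrosine phosphatase at cell contacts, had 811 and 791 CPM but only 130 TPM over 10872 bases.

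Enzymes, GTPases and signalling genes covered 522 to 1204 CPM. The peroxidase gene PRDX1 had 1834 TPM, and the nucleoside diphosphate kinase gene NME2 had 1038 TPM. RAN, the GTPase of nuclear transport, had 934 TPM, and CDC42, a GTPase of cell polarity, had 279 TPM. OGT, which adds O-GlcNAc to nuclear and cytosolic proteins, had the most counts of the group (1208 and 1200 CPM in lanes 6 and 7) but the lowest TPM (205), with PRDX1 8.96 times above it (95% interval 8.81 to 9.12). The identifier of OGT is a combined one of 10385 bases, so its level and this ratio are those of overlapping genes counted together. PPP1CB, a catalytic subunit of protein phosphatase 1, had 511 TPM, and the fatty acid elongase gene ELOVL5 had 412 TPM. POGLUT1, which glucosylates Notch receptors, had 364 TPM. SFRP1, a secreted antagonist of Wnt ligands, was the only member of the Wnt, hedgehog, FGF, BMP, retinoid and Notch ligand or antagonist lists that could be matched to an identifier. It had 521.8 CPM in lane 6 and 522.1 CPM in lane 7 (235 TPM).

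Genes listed as hosts of miRNAs included ACTB (10492 TPM) and DDX5 (795 TPM), described above with the cytoskeleton and the RNA-binding proteins. The other 15 listed hosts had 12.3 to 167 CPM and 3.43 to 83.2 TPM, with a median of 30.2 TPM. The helicase gene DHX30 had 169 and 165 CPM in lanes 6 and 7. SRF, the serum response transcription factor of muscle and actin genes, had 120 CPM in each lane and the highest TPM of these 15 genes (83.2). The zinc finger gene ZNF462 on chromosome Z had 156 CPM in each lane. CDK6, a kinase of the G1 phase, had 129 and 135 CPM over 14623 bases (15.9 TPM), and CDK10 had 33.1 and 33.3 CPM over 1742 bases (33.6 TPM). Per length CDK10 was thus 2.11 times CDK6 (95% interval 1.95 to 2.29), whereas CDK6 had more counts. Both have combined identifiers, so this ratio also compares overlapping genes counted together. The ratio of CDK10 to CDK6 was 2.61 from exon parts of at least 75 bases alone. The autophagy gene ATG2B had the lowest TPM (3.43), with 13.0 and 11.5 CPM. The lanes spread most for the magnesium transporter gene SLC41A1, with 22.002 CPM in lane 6 and 17.9 CPM in lane 7, a difference that rested on 465 counts in all.

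**Figure D2:**
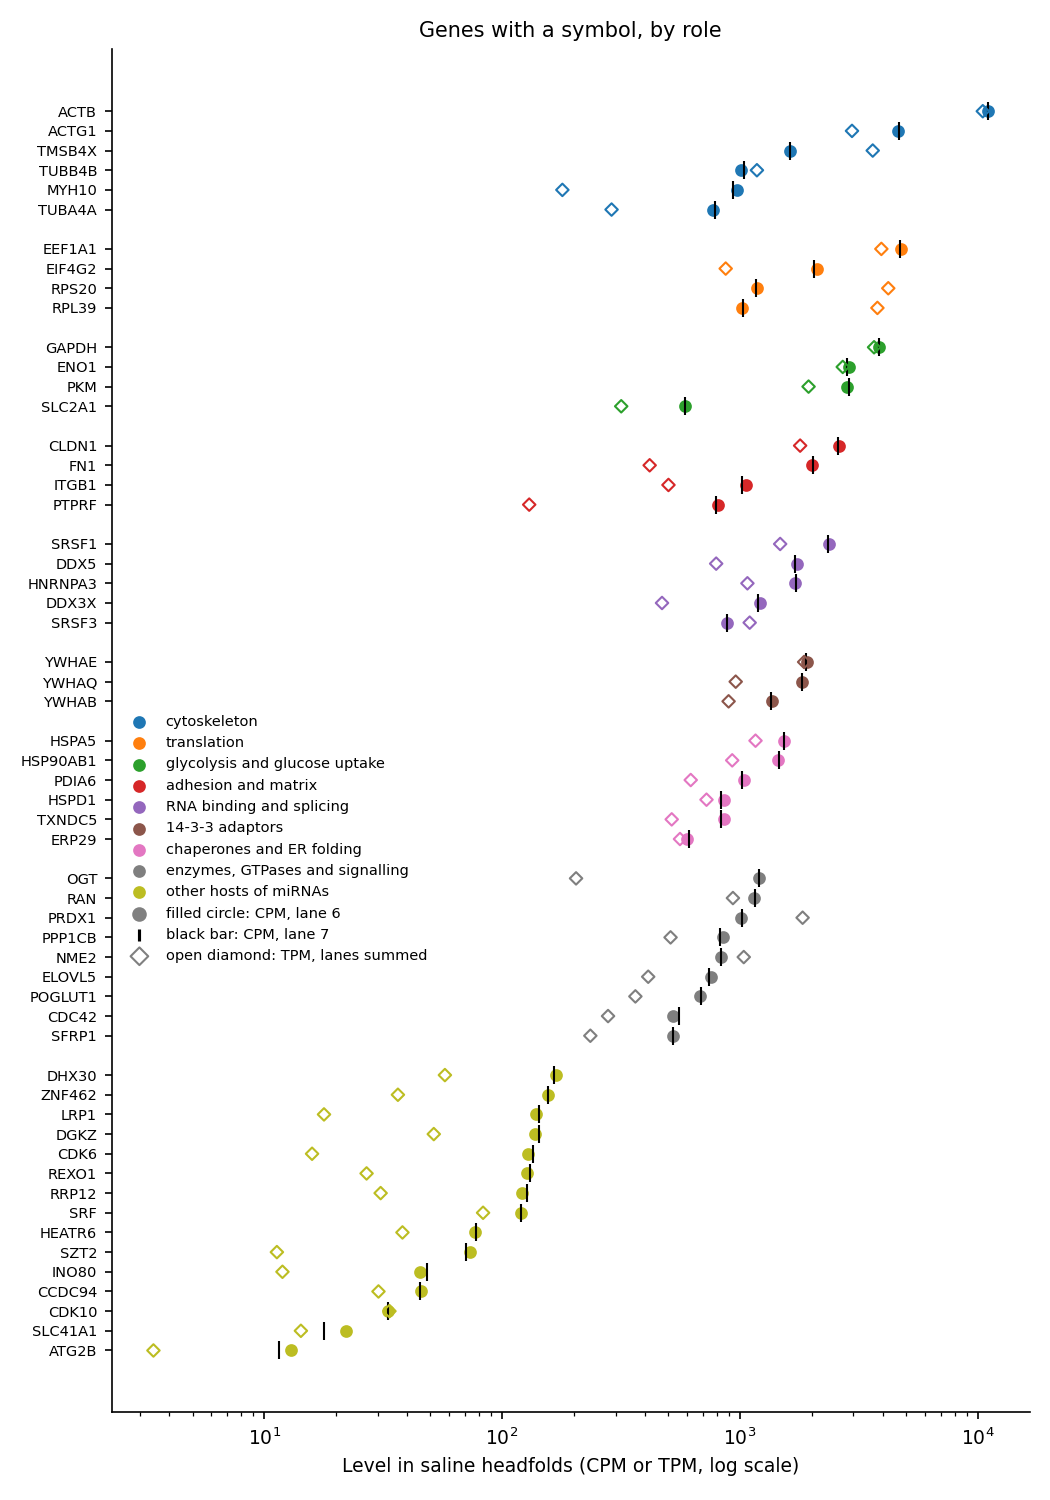
Levels of the 56 genes with a symbol (rows, grouped by role and colour) in saline headfolds on a log axis of CPM or TPM. Filled circles are CPM in lane 6, black bars CPM in lane 7 and open diamonds TPM of the summed lanes. Circles and bars nearly coincide down to about 100 CPM, diamonds move most for short genes such as RPS20 and long genes such as PTPRF, and the hosts of miRNAs other than ACTB and DDX5 lie between 12.3 and 167 CPM.

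A deposited table places genes in 21 pathway groups. Its genes had been chosen for exons that responded to alcohol, so the levels of these groups in saline headfolds are a description only. Many group names are the paper's labels for bundles of pathways, and do not give the function of each gene. All 1251 genes of these groups had at least 10 counts, against 68.8% of all 24481 nuclear genes. An exon needs counts to be called, so the choice of genes favoured detected ones. The median of the 1251 genes was 57.8 TPM, against 14.7 TPM over all 16831 genes with at least 10 counts. Of the 1251, 24.3% were among the top 1000 genes, against 5.94% of the genes with at least 10 counts. The group labelled ribosome biogenesis (271 genes) had a median of 83.8 TPM and 6.72% of the counts. The group of mTOR, autophagy and nitrogen metabolism (498 genes) had a median of 70.3 TPM and 12.0% of the counts. The 219 genes labelled TCA/OxPhos had 64.5 TPM, the 111 labelled cell cycle 66.4 TPM and the 80 labelled one-carbon metabolism 66.4 TPM. The paper's pathways for TCA/OxPhos name neither the citrate cycle nor oxidative phosphorylation, and those for cell cycle include purine and pyrimidine metabolism. The 113 genes labelled neural crest development had a median of 37.7 TPM. The 263 labelled cell-cell interactions had 43.5 TPM, and both medians lay below that of the listed genes together. The neural crest label covers general signalling pathways such as Notch, VEGF, Wnt and p53, so its median does not measure crest cells. Among groups of at least 10 genes, ErbB signaling (18 genes, 22.6 TPM) and MAPK signaling (44 genes, 27.3 TPM) had the lowest medians. The highest was that of the group labelled cardiac muscle contraction (17 genes, 313 TPM), with a median of 171 CPM. Its members were not examined, so the label is not taken as a sign of cardiac tissue. A gene can stand in several groups, so these values overlap.

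Detection of genes differed between chromosomes. Bird genomes hold large chromosomes and many small, gene-dense ones, and females carry Z and W where males carry 2 copies of Z. On chromosomes 1 to 5, 72.8% of 8372 genes reached 10 counts, and on chromosomes 10 to 33, 80.4% of 6677 genes did, against 68.8% of all 24481. The total includes 5705 genes on unplaced scaffolds and small linkage groups, of which 48.7% were detected, so it lies below most placed chromosomes. The small chromosomes held 27.3% of the genes and 41.2% of the counts, and the large ones held 34.2% of the genes and 35.0% of the counts. Among detected genes the median was 19.7 TPM on the small chromosomes and 14.9 TPM on the large ones. Among the 27 chromosomes with at least 200 genes, the detected share was highest on chromosome 23 (89.2% of 279 genes) and lowest on Z (55.8% of 1219 genes), with a median of 79.6%. No test of these differences was made, since genes are not replicates of a chromosome.

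Z stood lowest among these 27 chromosomes in other measures too. It held 4.98% of the genes and 2.51% of the counts (2.52% in lane 6 and 2.51% in lane 7). Its detected genes had a median of 10.1 TPM, against 14.7 TPM over all detected genes, and 5.33% of its genes reached 100 CPM, against 9.52% of all genes. Single-part genes made up 12.3% of the genes on Z, close to the 12.2% of all genes. The median gene on Z was smaller, with 5 exon parts and 1257 bases, against 6 and 1416 over all genes. All genes include those on unplaced scaffolds and small linkage groups, with medians of 3 and 960. The medians were 7 and 1582 on chromosomes 1 to 5, and 8 and 1570 on chromosomes 10 to 33. Whether the smaller size of the genes on Z goes with the lower detection there was not tested. Among genes with 2 or more exon parts, 59.4% on Z were detected, against 73.8% of all such genes. W held 140 genes, of which 67 (47.9%) reached 10 counts, and it took 0.0396% of the counts. Genes on W had a median of 2 exon parts and 984 bases, and 19.3% of them were single-part genes. The highest W gene, at 114 CPM, made up 28.9% of the counts on W, and the detected W genes had a median of 2.10 TPM. In lane 6 alone 35.7% of the W genes reached 10 counts, and in lane 7 alone 30.7% did.

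The gene with the most counts held a median of 7.12% of its chromosome over the 27 chromosomes with at least 200 genes. The highest such share among them was that of ACTB, which made up 33.9% of the counts on chromosome 14. Genes without a symbol made up 19.6% on chromosome 24 and, among smaller chromosomes, 45.1% on chromosome 33 and 26.9% on chromosome 22. On chromosome 30, which has only 4 genes, such a gene made up 87.2%. ACTG1 held 15.0% of the counts on chromosome 18, which had 2.01 times as large a share of the counts as of the genes. ENO1 held 13.7% on chromosome 21. On the unplaced scaffolds and small linkage groups, 48.7% of 5705 genes were detected.

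**Figure D3:**
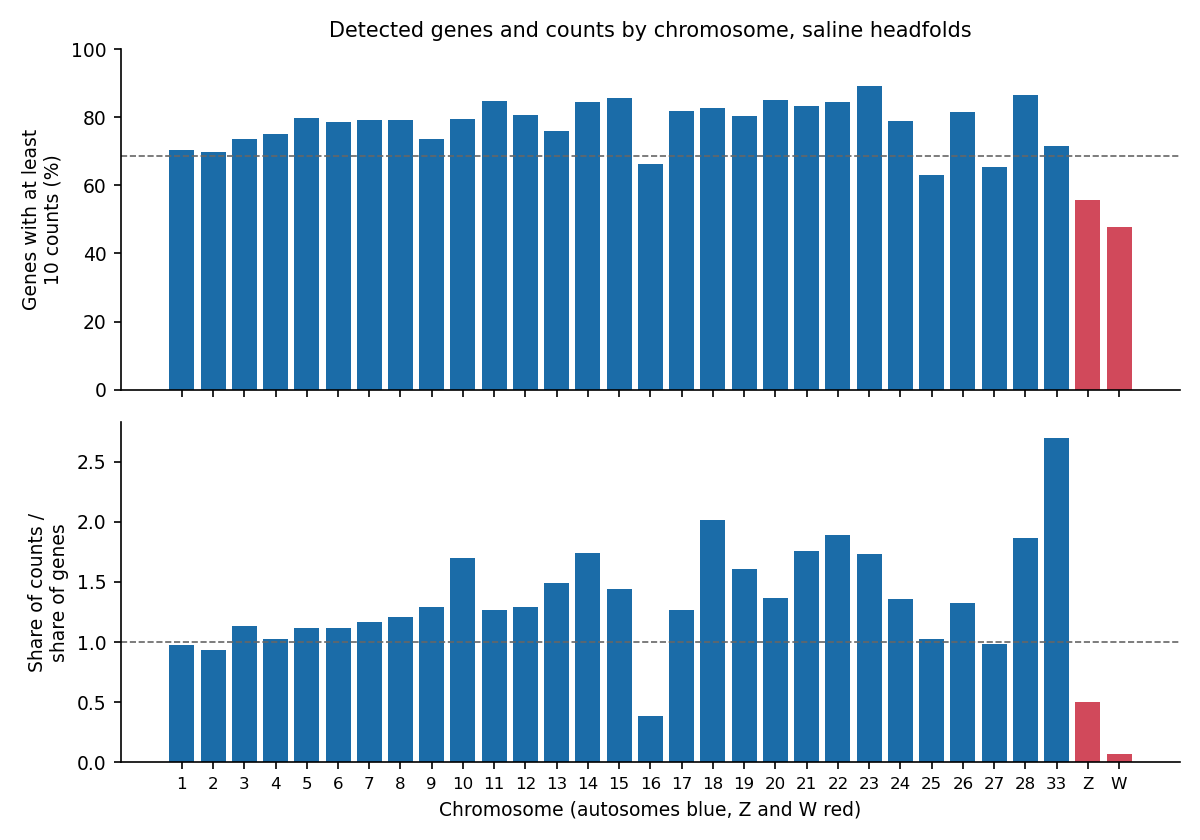
Detected genes and counts by chromosome (horizontal axis, chromosomes with at least 50 genes) in the summed saline lanes. The upper bars give the percent of genes with at least 10 counts, with the 68.8% of all genes as a dashed line, and the lower bars give the share of counts divided by the share of genes, with 1 as a dashed line. Z (55.8%) and W (47.9%) in red have the lowest shares of detected genes.

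The number of exon parts of a gene went with its detection. Of the 2991 genes with 1 exon part, 32.7% were detected, against 55.9% of the genes with 2 to 5 parts and 94.0% of those with more than 20 parts. The length of an exon part went with its counts. Fragments that touched more than 1 exon part had received no count, and 51352 of the 220675 nuclear exon parts (23.3%) were shorter than the read. These short parts held 4.53% of the exonic bases but 1.19% of the counts, at 136 counts per kilobase. Parts over 500 bases held 41.5% of the bases and 61.6% of the counts, at 765 counts per kilobase. In the 4986 genes with at least 1000 counts, 82.1% of the parts of up to 25 bases had 0 counts, as had 6.04% of the parts of 101 to 150 bases and 1.08% of those of 501 to 1000 bases. EEF1A1 was an example, since 25 of its 53 exon parts had 0 counts despite 110392 counts in the gene.

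Counts were also denser towards the 3' end of genes. In the 4142 genes with at least 1000 counts and at least 5 exon parts, the parts were placed into 5 bins by their order along the transcript. Bin 1 at the 5' end held 2.28% of the counts with 14.4% of the bases, and bin 5 at the 3' end held 76.7% of the counts with 45.7% of the bases. Counts per kilobase were 200.7, 396, 574, 1003 and 2137 from bin 1 to bin 5. Exon parts near the 3' end were longer (median 144 bases in bin 5 and 99 bases in bin 1). Among exon parts of 100 to 200 bases only, the order was the same, with 177 counts per kilobase in bin 1 and 1266 in bin 5.

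**Figure D4:**
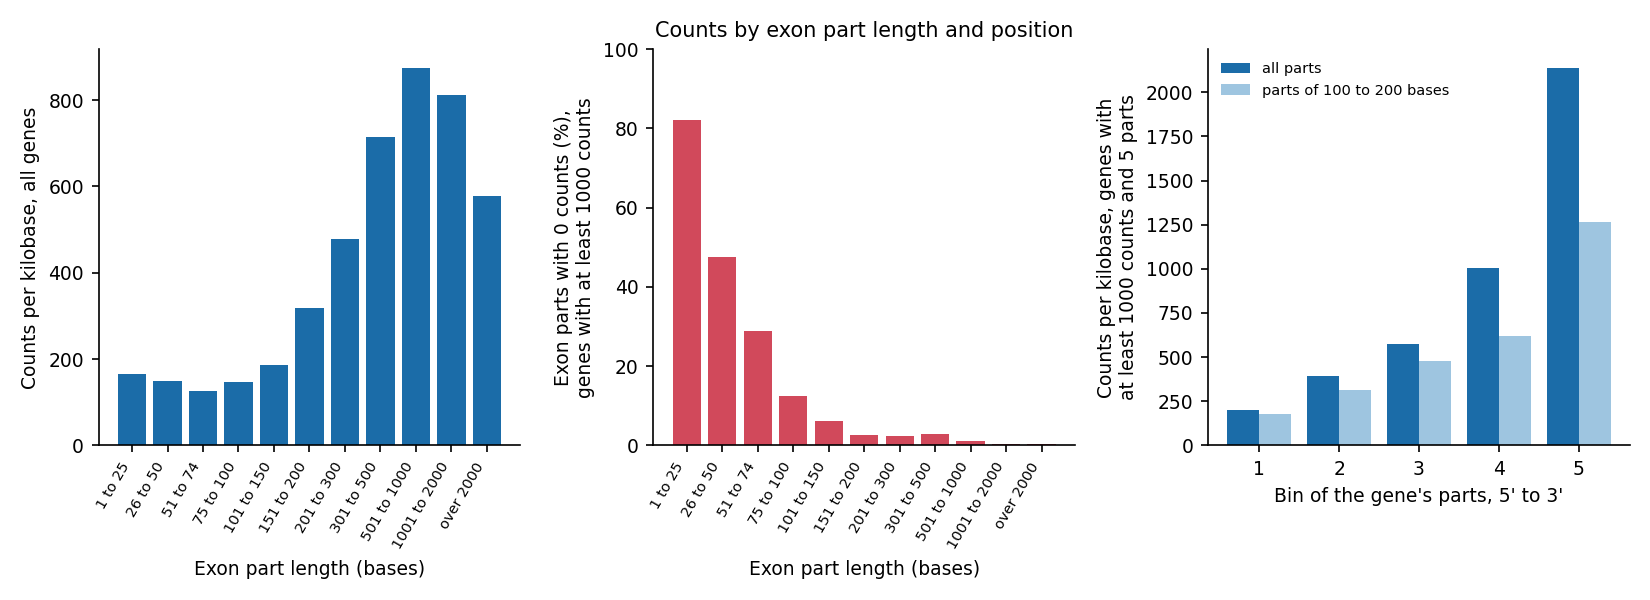
Counts by exon part length and position in the summed saline lanes. Bars on the left give counts per kilobase by exon part length in bases, bars in the middle the percent of exon parts with 0 counts in genes with at least 1000 counts, and bars on the right counts per kilobase by bin of the gene from 5' to 3', for all parts (dark) and for parts of 100 to 200 bases (light). Counts per kilobase peak at 874 for parts of 501 to 1000 bases and reach 2137 in bin 5.

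For most genes a single exon part held most of the counts. Among the 11282 genes with at least 100 counts and at least 2 exon parts, the dominant part, the one with the most counts, held a median of 70.6% of its gene (quartiles 50.4% and 88.8%). An even spread over the parts would give a median of 10%. In 8503 genes (75.4%) it held more than 50%, and in 2580 genes (22.9%) more than 90%. Dominant parts held 73.98% of the counts of these genes and 34.5% of their bases, and their median length was 597 bases, against 113 bases for the other parts. The median share was lower in genes with more parts, 85.1% with 2 to 5 parts, 74.2% with 6 to 10 parts, 65.1% with 11 to 20 parts and 52.01% with more than 20 parts. The lanes named the same dominant part in 10846 genes (96.1%). In the remaining 436 genes the first and second part differed by a median of 1.78 percentage points of the gene, and by at most 15.9.

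The dominant part was the 3'-most part in 7209 genes (63.9%), an internal part in 3533 (31.3%) and the 5'-most part in 540 (4.79%). Of all exon parts of these genes, 7.63% were 3'-most. The dominant part was also the longest part in 7882 genes (69.9%). In the 5683 genes whose longest part was the 3'-most one, that part dominated in 5223 (91.9%). In the 5599 genes whose longest part lay elsewhere, the longest part dominated in 2659 (47.5%) and the 3'-most part in 1986 (35.5%). Where the longest part was the 5'-most one, it dominated in 411 of 1223 genes (33.6%). In 1141 of the 3533 genes with an internal dominant part, all parts beyond it on the 3' side were shorter than the read. When counts per base decided and parts shorter than the read were left out, the 3'-most remaining part led in 74.8% of 10956 genes. This figure is not free of part length. In genes with at least 1000 counts, parts of 75 to 100 bases had 313 counts per kilobase. Parts of 501 to 1000 bases had 2860, and parts over 2000 bases had 1119.

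Among the 56 genes with a symbol, the dominant part held more than 50% in 48, was 3'-most in 31 and the longest in 47. The most complete dominance was that of exon part 1 of ERP29 (chromosome 15, 6316016 to 6317647), which held 99.7% of the gene's counts (95% exact binomial interval 99.6% to 99.8%) and 85.3% of its bases. Exon part 1 of TMSB4X (chromosome 1, 123358484 to 123358987) held 99.4%, and exon part 1 of POGLUT1 (chromosome 1, 92291341 to 92293612) held 99.1%. Exon part 1 of RPS20 (chromosome 2, 111559784 to 111560005) held 98.3% with 45.0% of the bases, and exon part 10 of ELOVL5 (chromosome 3, 88634647 to 88636560) held 98.1%. All 5 were 3'-most parts (numbers follow the chromosome, so that on the minus strand the 3' end carries number 1). Their shares in lanes 6 and 7 differed by at most 0.243 percentage points.

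The 5 lowest shares lay between 16.1% and 38.8%, and in these genes several parts shared the counts. LRP1, a large lipoprotein and signalling receptor with 102 exon parts on an unplaced scaffold, had 16.1% of its counts (95% exact binomial interval 14.8% to 17.4%) in exon part 88, and 9.02% in the next. In CCDC94, a splicing factor gene, exon part 2 of 166 bases held 211 counts (19.9%) and the 3'-most part of 1441 bases held 208 (19.6%), so the lead lay within counting error. DDX5 had 29.4%, 28.5% and 23.4% in exon parts 1, 3 and 2 near its 3' end. EEF1A1 had 35.1% in exon part 51 (chromosome 3, 81791169 to 81791358) and 23.9% in exon part 49. YWHAQ had 38.8%, 36.3% and 20.5% in its 3 parts at the 3' end. LRP1, CCDC94 and DDX5 have combined identifiers, so that their parts include those of an overlapping gene.

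**Figure D5:**
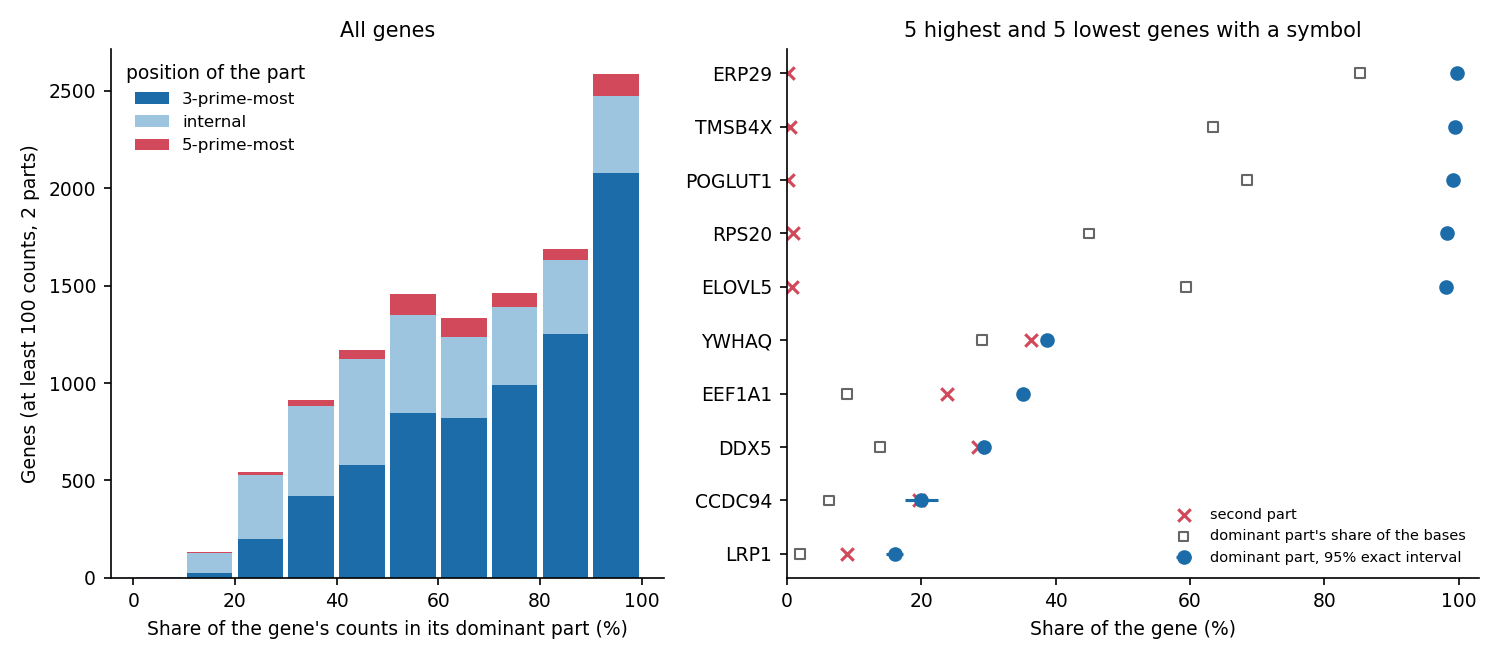
Shares of dominant exon parts in the summed saline lanes. The left panel stacks 11282 genes by the share of their counts in the dominant part (horizontal axis, %) and by its position, and the right panel gives the 5 highest and 5 lowest genes with a symbol, with the dominant part (filled circle, 95% exact interval), the second part (cross) and the dominant part's share of the gene's bases (open square). The tallest bar is that of shares from 90% to 100%, and ERP29 (99.7%) and LRP1 (16.1%) mark the ends among the named genes.

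Of the 24 named genes with an internal dominant part, 20 had it in a part numbered 2 to 4 from the 3' end, and in 10 of the 24 the parts beyond it were all shorter than the read. In ACTB, exon part 4 (chromosome 14, 4191303 to 4192028) held 202757 counts (78.9%), and the 3 parts beyond it summed to 12 bases. In GAPDH, exon part 26 (chromosome 1, 76956507 to 76956797) held 85.6% of the counts in 15.8% of the bases, with 8 bases beyond it. NME2 resembled these genes, with 90.7% in exon part 19 of 239 bases. In others a long 3'-most part stayed low. TUBA4A had 97.0% in exon part 6 (chromosome 7, 22328445 to 22329490), while the part of 3163 bases beyond it held 2.94%. MYH10 had 84.9% in exon part 2 of 1642 bases, and the part of 1830 bases beyond it held 0.153%. In RAN, the counts were shared between exon part 3 of 409 bases with 57.4% (37751 counts per kilobase) and exon part 2 of 807 bases, second from the 3' end, with 30.5% (10167 counts per kilobase). In SFRP1, exon part 2 (chromosome 22, 2594425 to 2596849) held 71.4% and the 3'-most part 26.7%, which left less than 1% for each of the other 10 parts.

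In OGT, ZNF462, SLC41A1 and LRP1 the dominant part lay far from the 3' end. All of them have combined identifiers, so this is the 3' end of overlapping genes counted together and may not be that of the named gene. The paper lists ZNF462, SLC41A1 and LRP1 as genes that contain a miRNA. Whether the overlapping gene is that miRNA was not tested. In OGT, exon part 15 of 45 (chromosome 4, 2213062 to 2214634) held 66.7%, 15 parts from the 3' end, and the 3'-most part of 1114 bases held 9.84%. In ZNF462, exon part 3 (chromosome Z, 55498149 to 55503634), with 5486 bases, held 39.6%, 13 parts from the 3' end. Its 3'-most part of 202 bases held 29.5%, and per kilobase the order was the opposite, at 5317 counts for the 3'-most part and 263 for exon part 3. SLC41A1 was the only named gene led by its 5'-most part (46.2%, 95% exact binomial interval 41.6% to 50.9%), with 37.0% in the 3'-most part of 160 bases. In LRP1, exon part 88 of 102 lay 15 parts from the 3' end, and the 3'-most part held 0% of the counts.

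Longer exon parts without any count were rare in well covered genes. In genes with at least 1000 counts, 110 of 7682 parts of at least 300 bases (1.43%) had 0 counts, in 104 genes. Of the 5'-most parts of this length 5.22% had 0 counts, against 0.532% of the 3'-most parts. None of these parts belonged to a gene with a symbol. Only 104 of all 4986 genes with at least 1000 counts had such a part, so this absence says little about the named genes.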

How the data were processed

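For each of 4 lanes, the authors deposited a raw count per exon part, made from trimmed reads by alignment to Gallus gallus 5.0 with Bowtie2 and by counting with featureCounts 1.5.2, unstranded and with both mates required. Fragments over more than 1 exon part had been left without a count, and libraries had been size-selected at about 300 bp. The signal values in a deposited table of exons are counts that the authors divided by size factors, and they served only to check exon part numbers (3630 of 3630 equal within 1e-04). Its columns of the authors' own comparison were not used. Names came from the tables of the study. A gene reference for a later assembly shares no identifiers with the files, and no sequence could be matched.

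The 2 saline lanes were summed. Detection needed 10 counts, and dominance needed 100 counts and 2 exon parts. Exact binomial tests (two-sided, with the ratio of lane totals as null, Benjamini-Hochberg over all features tested) were tested on simulated data. Intervals are exact binomial at 95%. Named genes were the 20 with the highest CPM, all genes with a symbol, and the 5 highest and 5 lowest shares. Gene groups and lists were chosen with earlier results of these data known. The study describes 2 pooled samples per group, whereas the saline lanes differed by little more than sampling noise and were treated as 1 library. Python 3.11.15, pandas 2.3.3, numpy 2.4.6, scipy 1.17.1 and matplotlib were used.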

Additional observations from a re-analysis of the deposited data

How the results depend on the processing

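The lane comparison stayed below its limit with genes of at least 1 or 100 counts. With exon parts in place of genes 0 features differed between the lanes, and with a filter of 100 counts 1 exon part did. With MT kept, the top 10, 100 and 1000 genes held 43.4%, 54.3% and 72.7% of the counts, and 40 genes held 50%. On the TPM scale the shares were 7.93%, 21.5% and 54.5%, and without combined identifiers 5.85%, 18.4% and 51.1%. Without the 2 highest genes on unplaced scaffolds, a choice made after seeing the data, they were 4.83%, 17.4% and 50.1%. With each lane alone they ranged from 6.67% to 6.69%, from 19.29% to 19.31% and from 51.33% to 51.39%.

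The detected share on chromosomes 1 to 5, chromosomes 10 to 33, Z and W was 81.2%, 87.2%, 65.0% and 68.6% at 3 counts, and 66.0%, 73.6%, 48.6% and 27.1% at 1 CPM. At 3 counts W thus lay above Z. Among genes with at least 2 exon parts, a choice made after seeing the data, it was 79.2%, 85.3%, 59.4% and 55.8%. With each lane alone it ranged from 67.6% to 67.8%, from 75.1% to 75.2%, from 49.96% to 50.29% and from 30.7% to 35.7%, where fewer counts make 10 harder to reach.

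The median share of the dominant part was 68.2% for genes with at least 10 counts, 79.7% at 1000 counts, 71.5% without parts shorter than the read and 72.4% to 72.7% in each lane alone. When counts per base decided, it was 51.2% of the summed density. The 3'-most part dominated in 62.8%, 62.1%, 73.6% and 66.0% of the genes with at least 10 counts, with at least 1000 counts, without short parts and by counts per base, and in 63.7% to 63.9% in each lane alone. The longest part dominated in 66.9% at 10 counts, 79.4% at 1000 counts, 53.4% by counts per base and 71.7% to 71.9% in each lane alone. Levels of 9 of the 56 named genes in a lane alone lay outside the counting interval of the sum. Limits are the alignment and the counting rule, whose contributions to the few counts of short exon parts were not tested. Another limit is the description of a single summed library. TPM of different genes also depends on their exon structure, and it was not corrected for the density of counts towards the 3' end. No paired analysis was possible because a single library was described. No result had enough samples to be examined for a sample far from the others.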
